A study of Mus musculus with 143 samples.

Results

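The 8 genes described here are a chosen set from the mouse oocyte. Among them, the secreted growth factors Gdf9, Bmp15, Bmp6 and Fgf8 and the gap junction gene Gja4 serve its signalling to, or coupling with, follicle cells. The others are the oocyte-secreted protein genes Oosp1, Oosp2 and Oosp3. All 8 genes are called members below. The 8 were taken by name from the count files, which hold 55573 genes for poly(A) RNA and 55487 genes for RiboMinus RNA (total RNA depleted of ribosomal RNA). All 8 were found and passed the filter on low counts in both. The series follows mouse oocytes that lack Dis3 or Exosc10, the ribonucleases of the nuclear RNA exosome, which trims and degrades RNA from its 3′ end. The 71 poly(A) libraries are single oocytes at 3 stages. They comprise 8 control and 15 Dis3 cKO (knockout) oocytes at the germinal vesicle stage (GV), 8 control and 16 Dis3 cKO oocytes after 3 h of culture (GV3h), and 8 control and 16 Dis3 cKO eggs at metaphase II (MII). The 48 RiboMinus libraries are single oocytes in 6 groups of 8. They are adult GV control and adult GV Dis3 cKO, and, at p20 (read here as postnatal day 20), control, Dis3 cKO, Exosc10 cKO and a group labelled dcKO, in which transcripts of both ribonucleases were low. GV and GV3h oocytes were dissected from ovaries and held in M2 medium, whereas MII eggs came from oviducts of superovulated mice. The mutant mice were made with CRISPR/Cas9. The driver of the conditional deletion, the strain, the adult age and the number of animals are not given in the sources used here, so p-values measure the spread between single oocytes, some of which may share an animal.

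Oocytes and the granulosa cells around them grow in exchange with each other. GDF9 and BMP15, members of the TGF-beta family secreted by the oocyte, act as homodimers or as a heterodimer on granulosa cell receptors and drive proliferation and cumulus expansion. BMP6 is another oocyte ligand of the same family, and FGF8 is a fibroblast growth factor that acts with BMP15 on glycolysis in cumulus cells. Gja4 encodes connexin 37, the connexin that oocytes contribute to the gap junctions with granulosa cells, through which small molecules that feed the oocyte and hold it in meiotic arrest pass. The Oosp genes encode small secreted proteins of oocytes, whose roles are less well known.

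The targeted transcripts were low in every knockout group. The log2 fold change of Dis3 was -2.18 in GV, -2.57 in GV3h and -3.63 in MII poly(A) RNA, and -3.13 in adult, -2.74 in p20 Dis3 cKO and -2.25 in p20 dcKO RiboMinus RNA. That of Exosc10 was -5.22 in p20 Exosc10 cKO and -4.01 in dcKO oocytes. Counts on genes ranged from 4843964 to 15412200 in the poly(A) and from 8492102 to 35429028 in the RiboMinus libraries. The lowest count of any of the 8 genes in any library was 20, for Fgf8, and the spread between oocytes (coefficient of variation 3.15% to 65.2%, median 17.3%) had a higher median than that of counting (0.341% to 11.8%, median 1.09%), although for Fgf8 in p20 controls they were about equal (3.15% and 3.03%). Of 10 oocyte marker genes, none was at 0 in any group. The 16 granulosa and cumulus markers summed to between 44.2 and 252 CPM (counts relative to the library's total) over all poly(A) libraries. In 4 libraries the genes as a whole deviated from their group at least 2 times as far as in the other libraries: Dis3 cKO 6 and 8 at GV, Dis3 cKO 15 at MII and Exosc10 cKO 2_4 at p20. The tests of the groups that hold them are given with and without them, and each call of a member that changed without them is stated.

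On the mouse genome (GRCm38.p6) the members lie on 5 chromosomes, with the 3 Oosp genes side by side on chromosome 19. There Oosp2 (ENSMUSG00000055895, chr19:11647284-11660559) is followed after 6900 bases by Oosp1 (ENSMUSG00000041857, chr19:11667460-11691051), and Oosp1 after 6003 bases by Oosp3 (ENSMUSG00000055933, chr19:11697055-11711858), with 2 small annotated genes, Gm26183 and Gm25443, between the last pair. Fgf8 (ENSMUSG00000025219, chr19:45736491-45742941) is on the same chromosome at a distance. Gdf9 (ENSMUSG00000018238) is at chr11:53430774-53437904, Bmp15 (ENSMUSG00000023279) at chrX:6314054-6320724, Bmp6 (ENSMUSG00000039004) at chr13:38345716-38500314 and Gja4 (ENSMUSG00000050234) at chr4:127311420-127314039. Gdf9 overlaps Uqcrq, Bmp6 overlaps Txndc5 and 4930579J19Rik, and Oosp3 overlaps the pseudogene Gm19224. Whether counting used strand is not given in the sources used here, so reads in those overlaps could have been split or lost.

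RefSeq start sites on that build were at hand for 5 of the 8 members. The 250 bases before the start are shown for the neighbours Oosp1 and Oosp2, whose shares of the message changed in opposite directions at maturation (with spike-in scaling both were lower in eggs), and for Bmp15. Each is written 5′ to 3′ on the gene's strand. Capitals mark matches, on either strand, to the E-box CANNTG, which the oocyte factor FIGLA and its partners bind, to TAATTG and TAATTA, which are bound by the oocyte homeobox factor NOBOX, and to TATAAA.
Oosp1, minus strand, chr19:11691052-11691301: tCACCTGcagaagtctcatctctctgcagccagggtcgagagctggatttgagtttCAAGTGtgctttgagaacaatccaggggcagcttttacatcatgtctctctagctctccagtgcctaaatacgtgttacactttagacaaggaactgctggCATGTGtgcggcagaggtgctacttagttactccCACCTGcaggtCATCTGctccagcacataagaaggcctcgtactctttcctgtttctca
Oosp2, minus strand, chr19:11660560-11660809: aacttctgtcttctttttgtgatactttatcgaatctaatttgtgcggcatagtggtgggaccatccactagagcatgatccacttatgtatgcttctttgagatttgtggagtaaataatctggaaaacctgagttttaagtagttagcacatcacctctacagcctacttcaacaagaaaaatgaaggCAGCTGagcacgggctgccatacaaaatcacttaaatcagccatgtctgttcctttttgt
Bmp15, minus strand, chrX:6320725-6320974: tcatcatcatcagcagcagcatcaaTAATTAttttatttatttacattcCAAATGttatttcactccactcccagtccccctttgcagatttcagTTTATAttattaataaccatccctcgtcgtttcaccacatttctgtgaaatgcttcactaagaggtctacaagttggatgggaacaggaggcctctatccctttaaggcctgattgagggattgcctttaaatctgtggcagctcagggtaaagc
The Oosp1 window held 5 E-boxes and the Oosp2 window 1. Over 17492 promoters of the same length, 62.7% held an E-box, with a mean of 1.05. The Bmp15 window held 1 TAATTA (4.45% of promoters), 1 E-box and 1 TATAAA read on the other strand (12.4% of promoters). None of the 5 members held TAATTG, which was in 6.51% of promoters. The G and C content of these 3 windows was 49.2%, 39.6% and 40.4%, against a median of 55.2%. Bmp6 held 2 E-boxes in a window of 68.8% G and C, and Gja4 held none of the motifs in one of 61.2%. These matches describe the letters in the windows and say nothing about which factors bind there.

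Maturation in controls separated the members into a set that gained and a set that lost share of the message. From GV to MII, Gdf9, Bmp15, Oosp1 and Oosp3 rose as a share of the library, a direction that flips with spike-in scaling, and Bmp6, Fgf8, Gja4 and Oosp2 fell under either (edgeR quasi-likelihood test, Benjamini-Hochberg adjusted p under 0.05 over 17389 genes). All 8 were called, against 58.5% of all genes tested, and for 7 of the 8, against 28.4% of all genes, the ranges of the 8 GV and the 8 MII oocytes were apart. Levels below are CPM scaled by the trimmed mean of M values (TMM), given as the lowest, median and highest library of a group. They are shares of a library's message, and genes are not compared with each other by level because no transcript lengths were used here.

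Among the ligands, Gdf9 stood at 3202, 3980.1 and 4276 CPM in control GV oocytes and at 5229, 5805 and 6599.6 CPM in control MII eggs. Every egg was above every GV oocyte, with a log2 fold change of 0.61 (SE 0.21, adjusted p = 0.00879). Bmp15 went from 2424, 2831 and 3286 CPM to 3608, 4325 and 4670.4 CPM (log2 fold change 0.60, SE 0.17, adjusted p = 0.00192), again with no overlap. Its partner in the heterodimer thus rose by nearly the same factor, 1.53-fold for Gdf9 and 1.51-fold for Bmp15. Bmp6 moved the other way, from 69.3, 104 and 128 CPM to 52.1, 71.2 and 99.7 CPM (log2 fold change -0.55, SE 0.13, adjusted p = 0.00022), and here 5 of the 8 eggs lay within the GV range. Fgf8 had the largest change of the 8. It was at 70.5, 167 and 237 CPM in GV oocytes and at 3.58, 8.30 and 10.98 CPM in eggs, 19.5-fold lower (log2 fold change -4.29, SE 0.33, adjusted p = 1.39e-18). The GV oocytes differed widely among themselves in Fgf8, and the lowest of them was still above the highest egg.

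Gja4, the oocyte's side of the gap junction, was at 975, 1289 and 1427 CPM in control GV oocytes and at 66.7, 108 and 129 CPM in control eggs. That is 12.2-fold lower (log2 fold change -3.61, SE 0.24, adjusted p = 3.89e-22), with all 8 eggs below all 8 GV oocytes. The genes next to each other on chromosome 19 did not move as one. Oosp1 rose from 1034, 1413 and 1948 CPM to 3404, 3839 and 4651 CPM (2.68-fold, log2 fold change 1.42, SE 0.16, adjusted p = 1.18e-12). Oosp3 rose from 744, 891 and 1874 CPM to 2367, 2833 and 3115 CPM (2.65-fold, log2 fold change 1.40, SE 0.25, adjusted p = 1.32e-06). Oosp2, the third gene of the cluster, fell from 449.6, 549.7 and 841 CPM to 113, 139 and 232 CPM (4.21-fold, log2 fold change -2.08, SE 0.18, adjusted p = 7.25e-17). In each of the 3 genes the GV and MII ranges were apart. The oocyte markers also moved between these stages, from a sum of 14532 to 20631 CPM in GV to 7746 to 10419 CPM in MII controls, and of 10 granulosa markers tested 1 was higher and 7 were lower in eggs. Their part in the members' differences was not tested.

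**Figure D1:**
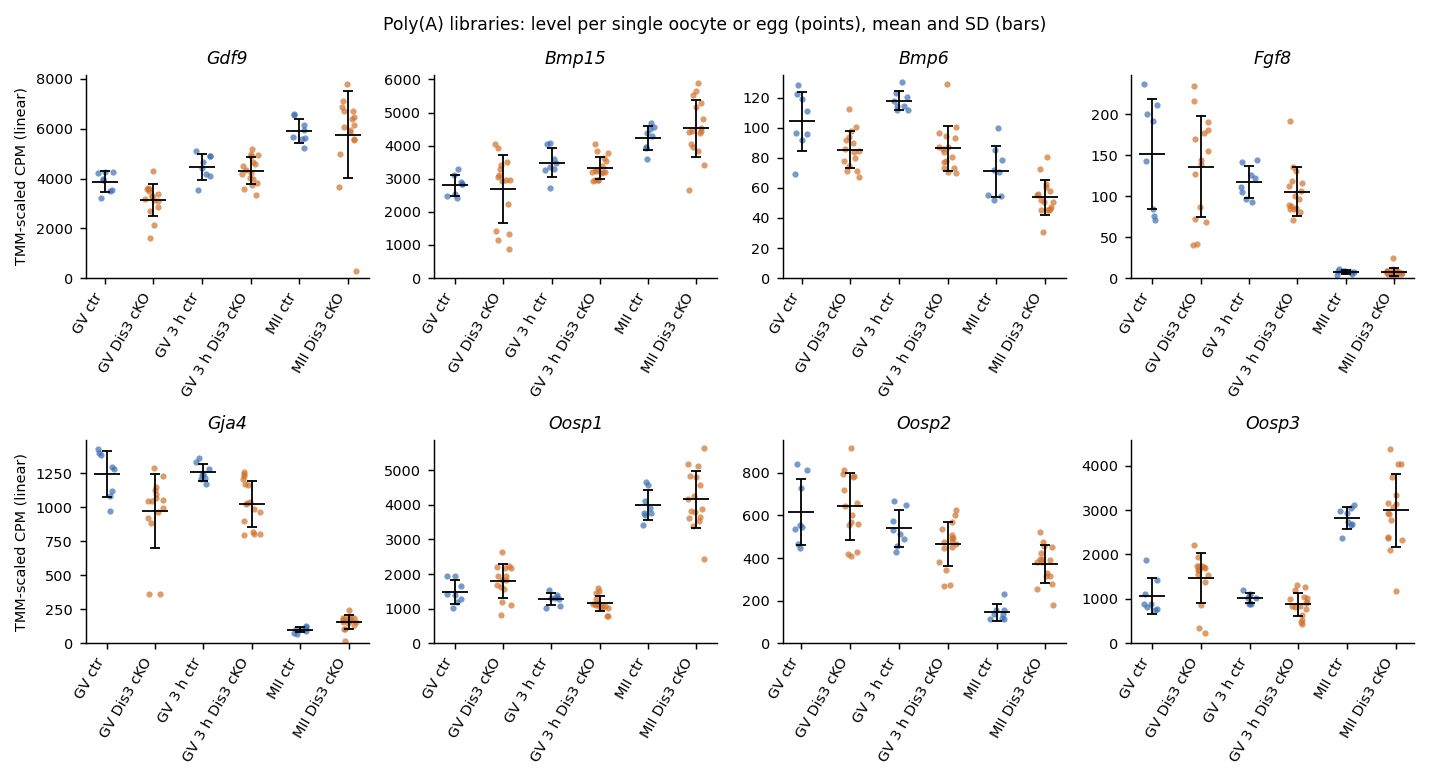
Levels of the 8 genes in single-oocyte poly(A) libraries, as TMM-scaled CPM on a linear axis, for control and Dis3 cKO oocytes at GV, GV3h and MII. Points are libraries and bars are group means ± SD. On this scale, though not with spike-in scaling, Gdf9, Bmp15, Oosp1 and Oosp3 are higher in MII than in GV controls. Fgf8, Gja4 and Oosp2 are lower, and Oosp2 is higher in MII Dis3 cKO eggs (178 to 524 CPM) than in 7 of the 8 MII controls.

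Between control GV and GV3h oocytes no member was called by edgeR, against 2.71% of all genes; 0 had an unadjusted p under 0.05 and DESeq2 called 0. The largest differences were 0.32 (SE 0.17) for Bmp15 and -0.37 (SE 0.29) for Fgf8 on the log2 scale, and Bmp15 passed with only the compared groups in the fit. The smallest, 0.01 (SE 0.21), was that of Gja4, at 1171, 1243 and 1361 CPM in GV3h. For Fgf8 all 8 GV3h oocytes lay below the median GV oocyte, but inside the GV range.

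Because a fixed amount of ERCC spike-in RNA was added to each oocyte, the members could also be scaled to it, which sets the captured RNA against a fixed addition rather than against the library's total. In these libraries only RNA captured by its poly(A) tail was measured, and total RNA of MII eggs was not analysed here. The median control GV library held 138 gene counts per ERCC count and the median control MII library 45.6, so all genes together moved: the median log2 fold change over all genes from GV to MII was -0.27 with TMM and -2.12 with ERCC scaling. On the ERCC scale the direction of the 4 risers flipped. Gdf9 was then lower in eggs (log2 fold change -1.26, adjusted p = 0.000231), as was Bmp15 (-1.27, adjusted p = 3.18e-05) and Oosp1 (-0.42, adjusted p = 0.0236), and Oosp3 had -0.43 with an adjusted p of 0.101. Relative to the median gene, with TMM, Gdf9 stood at 0.88, Bmp15 at 0.87, Oosp1 at 1.70, Oosp3 at 1.68, Fgf8 at -4.02, Gja4 at -3.34, Oosp2 at -1.80 and Bmp6 at -0.28. Centring on the median gene removes a shift common to all genes, so these values are nearly the same under either scaling by construction. On the ERCC scale 7 of the 8 messages were called lower in control eggs, as were 87.5% of all genes, and the values of Gdf9, Bmp15, Oosp1 and Oosp3 were less negative than that of the median gene.

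Without Dis3, all 8 members were again called from GV to MII, in the same directions as in controls with TMM, against 63.3% of all genes. Gdf9 rose by 0.87 (SE 0.15, adjusted p = 5.35e-07), Bmp15 by 0.76 (SE 0.12, adjusted p = 1.61e-07), Oosp1 by 1.21 (SE 0.11, adjusted p = 8.43e-16) and Oosp3 by 1.03 (SE 0.18, adjusted p = 6.11e-07) on the log2 scale. Fgf8 was 17.3-fold lower and Bmp6 1.59-fold lower. The falls of Gja4 and Oosp2 were smaller than in controls: 6.17-fold for Gja4 against 12.2-fold, and 1.73-fold for Oosp2 against 4.21-fold. With ERCC scaling 5 of the 8 were called, each of them lower in eggs, against 82.3% of all genes: Bmp15 (-0.53), Bmp6 (-1.91), Fgf8 (-5.14), Gja4 (-3.76) and Oosp2 (-1.92). Gdf9 (-0.36), Oosp3 (-0.14) and Oosp1 (0.0029, adjusted p = 0.984) did not pass. Without the libraries that stand apart all 8 passed with TMM in the same directions, with 0.96 for Gdf9, -2.67 for Gja4 and -0.82 for Oosp2. Of 10 oocyte markers 3 were higher and 5 lower in knockout eggs than in knockout GV oocytes, and of 10 granulosa markers 1 was higher and 7 were lower; their part was not tested.

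The difference in maturation between genotypes was tested as an interaction, with 13.2% of all genes called. Of the members, only Gja4 and Oosp2 passed it. For Gja4 the Dis3 cKO effect was higher at MII than at GV by 0.99 (SE 0.27, adjusted p = 0.00722) and for Oosp2 by 1.29 (SE 0.21, adjusted p = 8.98e-06), and both passed with ERCC scaling too (1.68 and 1.996) and without the libraries that stand apart (0.94 and 1.26). The interactions of the other 6 ranged from -0.37 (SE 0.30) for Oosp3 to 0.26 (SE 0.25) for Gdf9 and did not pass.

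At MII itself, Dis3 cKO eggs differed from control eggs in 3 of the 8 members, against 42.1% of all genes. Oosp2 was at 113, 139 and 232 CPM in the 8 control eggs and at 178, 386 and 524 CPM in the 16 Dis3 cKO eggs. It was 2.54-fold higher (log2 fold change 1.35, SE 0.16, adjusted p = 9.08e-11), and 15 of the 16 knockout eggs lay above every control. Gja4 was at 66.7, 108 and 129 CPM in controls and at 14.6, 168 and 248 CPM in the knockout, 1.55-fold higher (log2 fold change 0.63, SE 0.19, adjusted p = 0.00567). Here 13 of the 16 knockout eggs lay above every control and 1, the library Dis3 cKO 15, below every control. With only the MII groups in the fit Gja4 lost this call. Bmp6 was lower, at 30.7, 51.2 and 80.3 CPM against 52.1, 71.2 and 99.7 CPM (log2 fold change -0.40, SE 0.11, adjusted p = 0.00272), with 9 of 16 eggs below the control range. The other 5 had log2 fold changes from -0.04 (SE 0.18) for Gdf9 to 0.10 (SE 0.15) for Bmp15.

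The library Dis3 cKO 15 was the lowest of its group in 5 members: Gdf9 (295 CPM), Bmp15 (2652 CPM), Gja4 (14.6 CPM), Oosp2 (178 CPM) and Oosp3 (1188 CPM). Without it the other 15 eggs spanned 3660 to 7802 CPM in Gdf9 and 103 to 248 CPM in Gja4. Fitted without the libraries that stand apart, the difference was 0.72 for Gja4 (SE 0.11, adjusted p = 1.09e-07) and 1.39 for Oosp2 (SE 0.14, adjusted p = 1.18e-12), and that of Bmp6 was again -0.40 (adjusted p = 0.00279). With ERCC scaling the median gene was 0.52 higher in the knockout eggs, and Bmp6 (-0.04, adjusted p = 0.889) was no longer called, whereas Oosp2 (1.77), Gja4 (1.07) and Oosp1 (0.40) were called higher, against 37.6% of all genes. That fit kept Dis3 cKO 15, which held 14.4 gene counts per ERCC count, against 48.6 to 81.0 in the other 15 knockout eggs. ERCC scaling without this library was not run. Relative to the median gene, with TMM, the values were 1.18 for Oosp2, 0.47 for Gja4 and -0.56 for Bmp6.

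The sum of the granulosa and cumulus markers also differed between these groups of eggs. The 16 markers summed to 104 to 202 CPM in control eggs and to 58.6 to 94.7 CPM in Dis3 cKO eggs, with no overlap. Over all poly(A) libraries the highest medians of single markers were those of Nr5a2 (38.0 CPM), Cyp19a1 (23.1 CPM) and Kitl (12.2 CPM). Of the 10 markers tested, 1 was called higher, Fshr (4.56), and 6 lower. Gja1 (connexin 43, the granulosa connexin), 1 of those 6, had a log2 fold change of -3.66. Both were low, with medians over all poly(A) libraries of 0.62 CPM for Fshr and 0.76 CPM for Gja1. The defining markers Amhr2, Foxl2, Hsd17b1, Inha and Ptx3 were at 0 in all 16 knockout eggs, and Npr2 and Ptx3 in all 8 controls. The oocyte markers summed to 7746 to 10419 CPM in control and 5960.1 to 19498 CPM in knockout eggs. Of these 10 markers 6 were called higher and 1 lower, with a median log2 fold change of 0.56, and 5 passed the interaction of genotype and maturation, each of them with a positive value. The part of attached follicle cells, and of what moved the oocyte markers, in the differences of Gja4, Oosp2 and Bmp6 was not tested.

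Before maturation, which members were called in the knockout in poly(A) RNA depended on the libraries kept and on the fit. At GV no member was called by edgeR, against 21.9% of all genes; 3 had an unadjusted p under 0.05 and DESeq2 called 0. Oosp3 had the largest value, 0.46 (SE 0.22, adjusted p = 0.123), with 744, 891 and 1874 CPM in controls and 223, 1661 and 2210.4 CPM in the knockout. The ranges overlapped in every member. Without the 3 poly(A) libraries that stand apart (GV Dis3 cKO 6 and 8, and MII Dis3 cKO 15, which enters the shared estimate of spread) 4 members were called, against 24.8% of all genes: Gdf9 (-0.29, SE 0.10, adjusted p = 0.0239) and Bmp6 (-0.31, SE 0.12, adjusted p = 0.0367) lower and Oosp1 (0.37, SE 0.12, adjusted p = 0.0179) and Oosp3 (0.63, SE 0.16, adjusted p = 0.00123) higher. With only the compared groups in the fit Bmp6 passed, and with ERCC scaling it was called lower too. With only the libraries numbered 1 to 8 in their titles 4 members were called, where 2250 of 16554 genes were called higher and 1571 lower. A replicate block on those numbers also called 4, where 2171 genes were called higher and 1640 lower. Bmp15 and Gja4 were each called under some alternative. Of 10 oocyte markers 2 were lower and 0 higher at GV, as were 2 of 10 granulosa markers, and their part was not tested. Single libraries also decided calls at GV: Oosp3 passed without control 1, Dis3 cKO 6 or Dis3 cKO 8, Bmp6 without control 2, Dis3 cKO 8 or Dis3 cKO 11, and Oosp1 without Dis3 cKO 8. Gdf9 passed in none of the 23 fits that each leave out a GV library (adjusted p from 0.187 to 0.342).

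In GV3h oocytes 1 of the 8 was called, against 38.6% of all genes. Bmp6 was at 112, 116 and 130.5 CPM in the 8 controls and at 69.7, 84.9 and 129 CPM in the 16 knockouts, 1.37-fold lower (log2 fold change -0.45, SE 0.11, adjusted p = 0.000822). In 15 of the 16 it lay below every control. Gja4 was below every control in 11 of 16, at 798, 1029 and 1258 CPM against 1171, 1243 and 1361 CPM, but did not pass (log2 fold change -0.29, SE 0.18, adjusted p = 0.212). Bmp6 was also called with ERCC scaling (-0.49, adjusted p = 0.0417). Without the libraries that stand apart, none of which is a GV3h oocyte but which enter the shared estimate of spread, Gja4 was called as well (-0.29, SE 0.10, adjusted p = 0.0168), as it was with only the compared groups in the fit.

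Within the knockout, 3 h of culture went with changes in 4 members, against 17.3% of all genes. Gdf9 rose by 0.46 (SE 0.15, adjusted p = 0.0244), with all 16 GV3h oocytes above the median GV oocyte. The 3 Oosp genes fell together, Oosp1 by 0.64 (SE 0.11, adjusted p = 2.49e-05), Oosp2 by 0.47 (SE 0.12, adjusted p = 0.00425) and Oosp3 by 0.74 (SE 0.18, adjusted p = 0.0016). For each of these 3, all 16 GV3h oocytes lay below the median of the 15 GV oocytes. With ERCC scaling, where the median gene rose by 0.47, 4 members were called, all higher, against 36.1% of all genes called higher: Gdf9 (0.89), Bmp15 (0.69), Gja4 (0.53) and Bmp6 (0.45). The 3 Oosp values were then -0.16, -0.01 and -0.30 and none was called. Leaving out GV Dis3 cKO 5 took Gdf9 to an adjusted p of 0.0515, and leaving out GV Dis3 cKO 10, 11, 13 or 16 brought Bmp15 past the threshold (adjusted p from 0.0257 to 0.0492). Of 10 oocyte markers 4 were higher and 2 lower in this comparison, and of 10 granulosa markers 3 were lower, and their part was not tested. Without the libraries that stand apart Fgf8 was called too (-0.51, SE 0.19, adjusted p = 0.0378). The interaction of genotype and 3 h of culture called no member by edgeR, against 2.04% of all genes; 2 had an unadjusted p under 0.05 and DESeq2 called 0. Without the libraries that stand apart it called Oosp3 (-0.85, SE 0.21, adjusted p = 0.0114).

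RiboMinus RNA, primed with random hexamers, does not select messages by their tails, and it gave the members in other adult GV oocytes. Dis3 cKO changed 2 of the 8 there, against 28.1% of all genes. Bmp6 was at 270.3, 323 and 356 CPM in controls and at 182, 223 and 286 CPM in the knockout (log2 fold change -0.46, SE 0.09, adjusted p = 0.000722), with 6 of 8 knockout oocytes below every control and all 8 below the control median. Oosp1 was higher with TMM, though not with ERCC scaling, at 871, 1089.7 and 1231 CPM in controls and 1029, 1204 and 1763 CPM in the knockout (log2 fold change 0.31, SE 0.10, adjusted p = 0.0268). Oosp3 had a like value, 0.37, with an adjusted p of 0.0826. Gdf9, at 1768, 2272 and 4418 CPM in controls, had -0.41 (SE 0.25, adjusted p = 0.238), and its spread of 38.2% was the widest of the members in that control group.

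The adult values leaned on the scaling and on how oocytes were grouped. With ERCC scaling, where the median gene fell by 0.52, 6 members were called lower, against 40.1% of all genes: Bmp6 (-1.01), Gdf9 (-0.93), Bmp15 (-0.68), Gja4 (-0.57), Oosp2 (-0.55) and Fgf8 (-0.49). Oosp1 had -0.27 (adjusted p = 0.131) and Oosp3 -0.24 (adjusted p = 0.201). The titles carry 2 tags per adult genotype, with 4 oocytes each. Summed per tag, Bmp6 had -0.50 with an adjusted p of 0.218, in an edgeR fit that called 0 of 20190 genes and so does not tell the members from the rest. Oosp1 lost its call without a filter on low counts and in 5 of the fits that leave out 1 library (adjusted p from 0.0504 to 0.0568), those without control AM1758_4, AM1759_1 or AM1759_2 or Dis3 cKO AM1757_1 or AM1757_4. Oosp3 gained a call without Dis3 cKO AM1713_1 or AM1713_3. The oocyte markers were lower in the knockout, with sums of 4004 to 4644 CPM against 5044 to 6655 CPM and no overlap. Their part in these differences was not tested.

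**Figure D2:**
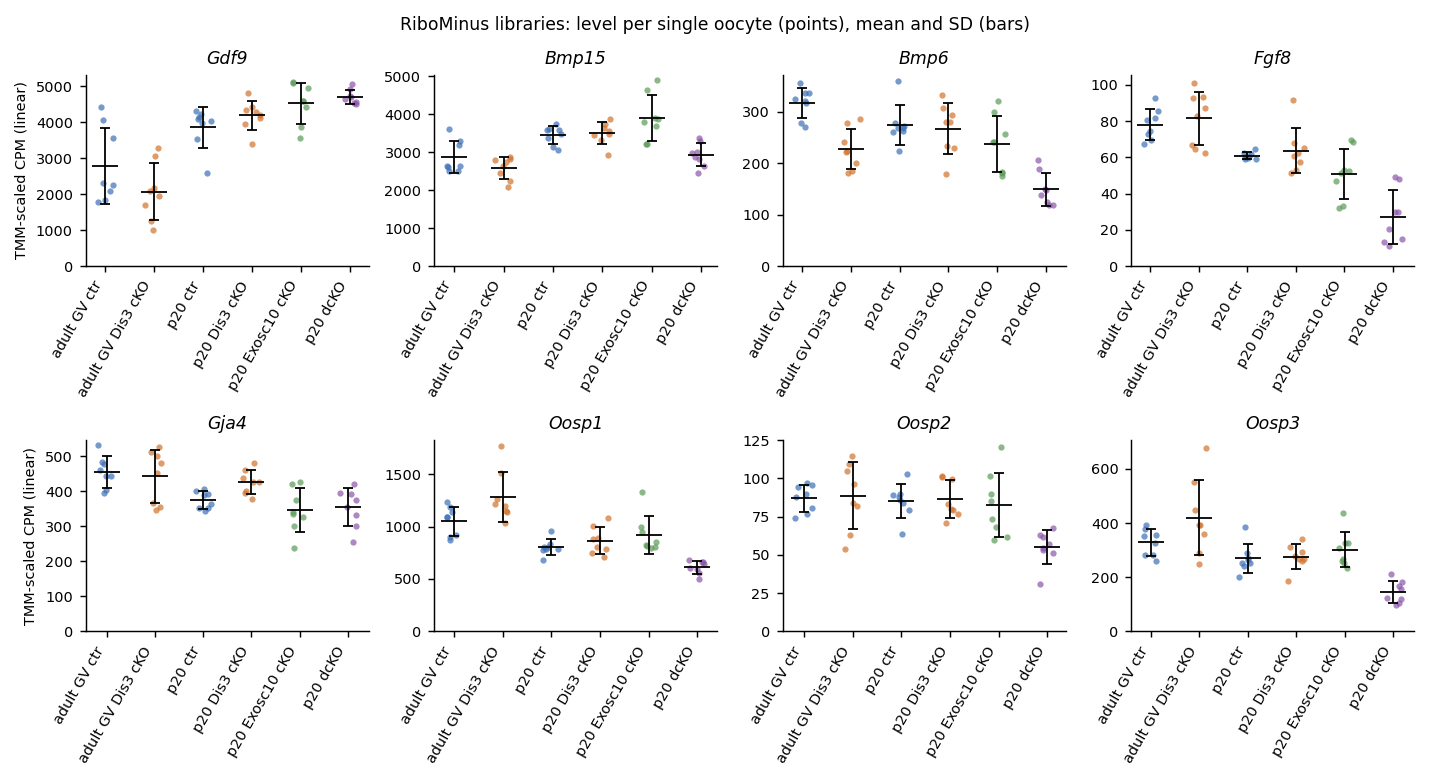
Levels of the 8 genes in single-oocyte RiboMinus libraries, as TMM-scaled CPM on a linear axis, for the 2 adult GV and the 4 p20 groups. Points are libraries and bars are group means ± SD. In p20 dcKO oocytes Fgf8 (11.3 to 49.0 CPM) and Bmp6 (119 to 207 CPM) lie below all p20 controls, and Gdf9 (4515 to 5062 CPM) lies above them.

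In growing oocytes at p20, no member was called in either single knockout. For Dis3 cKO edgeR called none, against 7.37% of all genes; 0 had an unadjusted p under 0.05 and DESeq2 called 0, with log2 fold changes from -0.03 (SE 0.13) for Bmp6 to 0.19 (SE 0.10) for Gja4. With only the compared groups in the fit, Gja4 passed in Dis3 cKO. For Exosc10 cKO edgeR called none, against 7.45% of all genes; 3 had an unadjusted p under 0.05 and DESeq2 called 0, with values from -0.26 (SE 0.21) for Fgf8 to 0.22 (SE 0.09) for Gdf9. Without Exosc10 cKO 2_3, Gdf9 had an adjusted p of 0.049996. Without Exosc10 cKO 2_4, which stands apart, no member was called by edgeR and the values ran from -0.34 for Fgf8 to 0.22 for Bmp15.

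The dcKO oocytes differed from p20 controls in 7 of the 8, against 53.7% of all genes, with 6 lower and 1 higher. The median log2 fold change of the 8 was -0.50, and that of all genes -0.01. Fgf8 was at 59.2, 60.6 and 64.8 CPM in controls and at 11.3, 25.004 and 49.0 CPM in dcKO oocytes, 2.24-fold lower (log2 fold change -1.16, SE 0.22, adjusted p = 3.2e-05). The groups did not overlap, and the controls, with a spread of 3.15%, were the tightest group measured for any member. Bmp6 was at 224, 269 and 360.3 CPM in controls and at 119, 143 and 207 CPM in dcKO oocytes (1.82-fold lower, log2 fold change -0.87, SE 0.13, adjusted p = 1.89e-06), also without overlap. Gdf9 was the only member that rose, from 2582, 4054 and 4299 CPM to 4515, 4658 and 5062 CPM (log2 fold change 0.29, SE 0.09, adjusted p = 0.00446), and again the groups were apart. The share of all genes with ranges apart was not counted for dcKO against control, so such separation may be common. Bmp15 moved the other way from its heterodimer partner, from 3061, 3533 and 3741 CPM to 2449, 2924 and 3363 CPM (log2 fold change -0.22, SE 0.08, adjusted p = 0.0205).

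All 3 Oosp genes fell in dcKO oocytes. Oosp3 was at 201.2, 259 and 387 CPM in controls and at 96.3, 140.1 and 212 CPM in the dcKO group (1.84-fold lower, log2 fold change -0.88, SE 0.15, adjusted p = 4.61e-06). Oosp2 went from 64.0, 86.8 and 103 CPM to 31.3, 55.96 and 67.2 CPM (1.54-fold lower, log2 fold change -0.62, SE 0.14, adjusted p = 0.000222), and Oosp1 from 676, 794 and 960.3 CPM to 498, 621 and 678 CPM (1.30-fold lower, log2 fold change -0.38, SE 0.10, adjusted p = 0.00097). In each, 7 of the 8 dcKO oocytes lay below every control. Gja4 did not pass, at 344, 377 and 407 CPM in controls and 256, 366 and 422 CPM in dcKO oocytes (log2 fold change -0.08, SE 0.10, adjusted p = 0.527). With ERCC scaling the median gene moved by -0.08 and 5 members were called lower, against 20.4% of all genes: Fgf8 (-1.19), Oosp3 (-0.88), Bmp6 (-0.87), Oosp2 (-0.65) and Oosp1 (-0.43). Bmp15 had -0.27 (adjusted p = 0.293) and Gdf9 0.20 (adjusted p = 0.411).

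The dcKO oocytes carry 2 title tags, and the tags differed. In Fgf8 the 4 oocytes of tag 1 were at 11.3 to 20.3 CPM (mean 15.02) and the 4 of tag 2 at 29.7 to 49.0 CPM (mean 39.2), so both tags lay below all controls and apart from each other. In Oosp3 the tags were also apart, at 96.3 to 124 CPM and 156 to 212 CPM. Gja4 was at 256 to 356 CPM in tag 1 and 375 to 422 CPM in tag 2. Summed per tag, which leaves 2 values per group, 5 members were called, against 31.8% of all genes: Fgf8 (-1.18, SE 0.35, adjusted p = 0.0284), Bmp6 (-0.88, SE 0.18, adjusted p = 0.00592), Oosp1, Oosp2 and Oosp3, while Gdf9 (adjusted p = 0.0759) and Bmp15 (adjusted p = 0.102) were not.

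Set directly against the single knockouts, dcKO oocytes had 7 members lower than Dis3 cKO, against 51.5% of all genes, and 6 lower than Exosc10 cKO, against 49.2%. These comparisons share the dcKO libraries. In both, 7 of 10 oocyte markers were higher and 0 lower. The granulosa markers summed to 117 to 188 CPM in dcKO, 125 to 204 CPM in Dis3 cKO and 138 to 203 CPM in Exosc10 cKO oocytes. The part of either set of markers was not tested. Fgf8 was 2.34-fold lower than in Dis3 cKO (log2 fold change -1.23, SE 0.22, adjusted p = 1.89e-05) and 1.86-fold lower than in Exosc10 cKO (-0.90, SE 0.22, adjusted p = 0.000851). In the same order, the log2 fold changes were -0.92 and -1.04 for Oosp3, -0.83 and -0.65 for Bmp6, -0.65 and -0.57 for Oosp2, -0.49 and -0.58 for Oosp1 and -0.25 and -0.40 for Bmp15. Gdf9 did not pass in either (0.17, SE 0.09, adjusted p = 0.0929 and 0.07, SE 0.09, adjusted p = 0.519). Gja4 was lower than in Dis3 cKO (-0.26, adjusted p = 0.0222), a call that went without Dis3 cKO 1_3 (adjusted p = 0.0505). Between the single knockouts, 1 member was called, against 9.98% of all genes. Gja4 was lower in Exosc10 cKO than in Dis3 cKO (-0.31, SE 0.10, adjusted p = 0.0321), at 239, 338 and 426 CPM against 377, 426 and 481 CPM, and this call was lost in 9 of the 16 fits that each leave out a library of either group. Without Exosc10 cKO 2_4 the difference of Gja4 was -0.35 (SE 0.10, adjusted p = 0.015), and the same 6 members were lower in dcKO than in Exosc10 cKO oocytes, with -0.85 for Fgf8. Summed per tag, Bmp15 (adjusted p = 0.0829) and Gja4 (adjusted p = 0.107) lost their calls against Dis3 cKO, and Fgf8 (adjusted p = 0.0813) against Exosc10 cKO. Without a filter on low counts Gja4 lost its calls between dcKO and Dis3 cKO and between the single knockouts, and with only the compared groups in the fit it lost the latter. With ERCC scaling Bmp15 was not called against Exosc10 cKO (-0.44, adjusted p = 0.0837). With that scaling, where the median gene was 0.26 higher in dcKO than in Dis3 cKO oocytes, only Fgf8 (-0.90) and Oosp3 (-0.60) were called lower than in Dis3 cKO, against 9.92% of all genes. Between the single knockouts, Gja4 was not called with ERCC scaling.

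**Figure D3:**
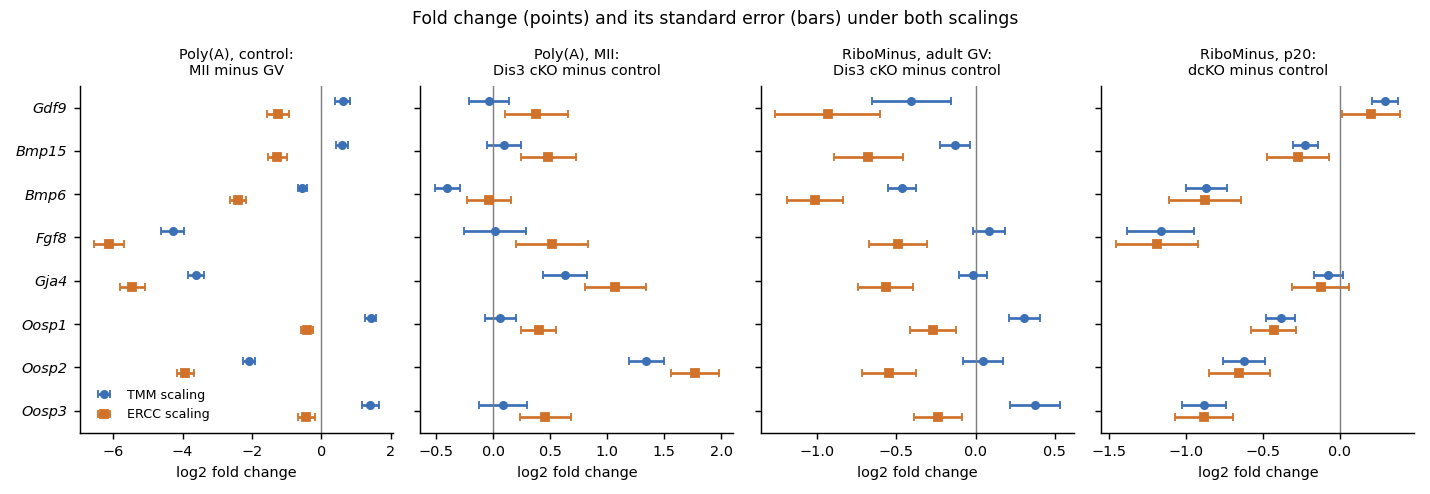
Log2 fold changes of the 8 genes in 4 comparisons, with TMM and with ERCC scaling. Blue circles are edgeR estimates with TMM and orange squares with ERCC scaling, horizontal bars are ± 1 SE and the vertical line marks no change. From GV to MII in controls Gdf9, Bmp15, Oosp1 and Oosp3 lie above 0 with TMM (0.61, 0.60, 1.42 and 1.40) and below it with ERCC scaling (-1.26, -1.27, -0.42 and -0.43), whereas in dcKO oocytes both scalings lie close together.

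Control oocytes of both ages were compared in 1 fit of the RiboMinus libraries. From p20 to adult GV, 4 members were called, against 19.1% of all genes. Gdf9 was lower in adults, at 1768, 2272 and 4418 CPM against 2582, 4054 and 4299 CPM (log2 fold change -0.47, SE 0.17, adjusted p = 0.0372), and Bmp15 was lower too, at 2503, 2639 and 3603 CPM against 3061, 3533 and 3741 CPM (-0.26, SE 0.08, adjusted p = 0.0216). With TMM, but not with ERCC scaling, Oosp1 was higher (0.39, SE 0.10, adjusted p = 0.00468), as was Gja4 (0.28, SE 0.10, adjusted p = 0.0382), at 396, 452 and 532 CPM against 344, 377 and 407 CPM. Fgf8 did not pass (0.36, SE 0.19, adjusted p = 0.192) although all 8 adult oocytes, at 67.4 to 92.7 CPM, lay above all 8 p20 oocytes. Of the 16 fits that each leave out a library, Gdf9 lost its call in 11, Gja4 in 8 and Bmp15 in 2, and summed per tag no member was called by edgeR, against 1.04% of all genes. Without a filter on low counts Gdf9 and Bmp15 lost their calls, and with only the compared groups in the fit Fgf8 and Bmp6 gained one. Of 10 oocyte markers 2 were higher and 5 lower in adult controls, with a median of -0.28, and of 12 granulosa markers 0 were higher and 2 lower. Their part in the members' differences was not tested.

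Adult and p20 Dis3 cKO oocytes differed in 4 members, against 37.5% of all genes. Gdf9 was 2.03-fold lower in adults, at 989.8, 2018 and 3279 CPM against 3395, 4237 and 4814 CPM (log2 fold change -1.02, SE 0.17, adjusted p = 3.81e-06), and Bmp15 was 1.36-fold lower (-0.44, SE 0.08, adjusted p = 4.94e-05). For both, the ranges of the 8 adult and the 8 p20 oocytes were apart. The share of all genes with ranges apart was not counted for these groups. With TMM, but not with ERCC scaling, Oosp1 was 1.49-fold higher (0.57, SE 0.10, adjusted p = 1.68e-05) and Oosp3 1.52-fold higher (0.61, SE 0.16, adjusted p = 0.00192). Oosp3 lost its call summed per tag (adjusted p = 0.105), and Fgf8 gained one with only the compared groups in the fit. Of the oocyte markers 1 was higher and 8 were lower in adult knockout oocytes, with a median of -0.58, and of 12 granulosa markers 1 was higher and 3 were lower. Their part was not tested here either. No member was called by edgeR in the interaction of Dis3 cKO and age, against 9.32% of all genes; 2 members had an unadjusted p under 0.05 and DESeq2 called 0. The values for Bmp6 were -0.44 (SE 0.18, adjusted p = 0.104) and for Gdf9 -0.55 (SE 0.23, adjusted p = 0.134). Bmp6 passed without p20 Dis3 cKO 1_4 (adjusted p = 0.0474) and with only the compared groups in the fit. With ERCC scaling all 8 were called lower in adult than in p20 oocytes in either genotype, against 85.7% of all genes in controls and 81.1% in the knockout, with values from -2.125 (Gdf9) to -1.31 (Oosp1) in controls, where that of the median gene was -1.69. The median adult control library held 397 gene counts per ERCC count and the median p20 control library 1269. Oocyte size at collection is not given in the sources used here.

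Bmp6 was lower in most knockout groups. Its log2 fold changes were -0.29 at GV (SE 0.11, adjusted p = 0.0623), -0.45 at GV3h, -0.40 at MII, -0.46 in adult RiboMinus RNA, -0.03 in p20 Dis3 cKO, -0.21 in p20 Exosc10 cKO and -0.87 in dcKO oocytes, of which those at GV3h, at MII, in the adult and in dcKO passed with TMM. With ERCC scaling the MII value was -0.04 (adjusted p = 0.889) and no longer passed, while that at GV did (-0.52, adjusted p = 0.0392). The adult value did not pass when summed per tag. With TMM, Fgf8 passed only in dcKO oocytes among these 7 comparisons with a control, with values of -0.15 at GV and GV3h, 0.02 at MII, 0.08 in the adult, 0.07 in p20 Dis3 cKO and -0.26 in p20 Exosc10 cKO. With TMM, Oosp2 was called higher at MII alone (1.35) and lower in dcKO oocytes alone (-0.62). With ERCC scaling both genes were also called lower in the adult knockout (-0.49 for Fgf8 and -0.55 for Oosp2).

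By order of mean level in poly(A) RNA, the only neighbouring groups apart by more than their SDs were, for Fgf8 and Gja4, the lowest GV or GV3h group and MII Dis3 cKO. For Oosp1 and Oosp3 they were MII control and GV Dis3 cKO, and for Oosp2 MII Dis3 cKO and MII control. No neighbours in the order were apart for Gdf9, Bmp15 and Bmp6. In RiboMinus RNA dcKO was the lowest group, apart from its neighbour, for Oosp1 and Oosp3 (neighbour p20 control) and for Bmp6 (neighbour adult Dis3 cKO), and no other neighbours were apart.

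Within groups, oocytes that were high in Oosp1 were also high in Oosp3. Each library's log2(CPM + 0.5) was set against its group mean. The deviations of the 2 genes had a Pearson correlation of 0.82 over the 71 poly(A) libraries and of 0.87 over the 48 RiboMinus libraries, and of 0.80 and 0.87 without the libraries that stand apart. Oosp2 followed Oosp3 less closely, at 0.67 and 0.58. Gdf9 and Bmp15 had 0.44 in poly(A) RNA, 0.68 without the libraries that stand apart, and 0.57 in RiboMinus RNA. Gdf9 and Oosp1 ran in opposite directions in RiboMinus RNA, at -0.56, and stood at -0.04 in poly(A) RNA, or -0.39 without the apart libraries. Fgf8 and Gja4 had 0.52 and 0.65. These values describe libraries that share a sequencing depth, a scaling factor and a quality of RNA, and no test was made of them. Deviations were taken from the group and not from the title tag, so differences between tags, as in dcKO oocytes, enter them. Pairs of genes other than the members were not computed.

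**Figure D4:**
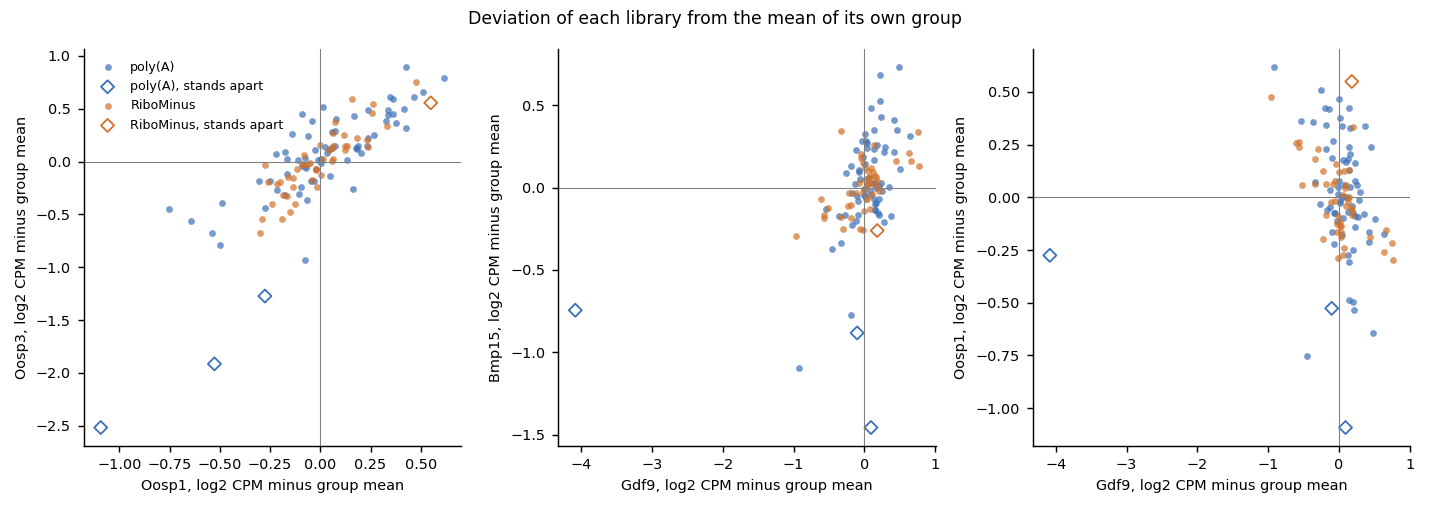
Deviations of single libraries from the mean of their group, in log2(CPM + 0.5), with Oosp3 against Oosp1, Bmp15 against Gdf9 and Oosp1 against Gdf9. Blue points are the 71 poly(A) and orange points the 48 RiboMinus libraries, and open diamonds are the 4 libraries that stand apart, of which 1 lies far to the left in Gdf9. Oosp1 and Oosp3 lie along a rising line in both assays (r = 0.82 and 0.87).

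Among 15735 genes kept in both assays, those whose group means over the 12 groups, centred within each assay, were most like a member were named by Pearson correlation. Oosp3 had Oosp1 among its 3 nearest (0.98), after Rundc3b and Fnbp4 (both 0.98). Fgf8 was nearest to Timm17a, Ascc1 and Upp1 (all 0.99) and Gja4 to Fam151a, Limd2 (both 0.996) and Znrd1 (0.995). Oosp1 was nearest to Snrpe (0.99), Yeats4 and Rpa3 (both 0.99), and Oosp2 to Tmem258, Eloc (both 0.98) and Dynlt1b (0.97). For the ligands the nearest were Klhl8, Mtmr3 (both 0.94) and Ate1 (0.93) for Gdf9, Ndc1 (0.94), Atg16l1 and Gfm1 (both 0.89) for Bmp15 and Syt16 (0.98), Mthfd1 and Foxj3 (both 0.97) for Bmp6. With 12 groups, and the largest differences between GV and MII, high values are common, and nothing on function follows from them.

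Further genes of the signalling pathway were followed in the same libraries, through lists of ligands, binders, receptors, connexins, contact proteins and regulators. Receptor values here are those of oocytes and eggs, and the follicle cells that receive the ligands were not measured. Their values are shares of the library with TMM. From GV to MII in controls, where 58.5% of all genes were called (3949 higher and 6229 lower), 10 of the 17 receptors and SMADs tested rose and 0 fell, among them the transducer Smad1 (1.9005), the activin receptor Acvr2b (1.65) and Smad3 (1.23). The median log2 fold change of this list was 0.55, against -0.27 for all genes with TMM. Of 12 connexins and pannexins 1 rose, Gjc1 (2.83), and 5 fell, including Panx2 (-4.34) and Gjb1 (-1.68). Of 11 other ligands 3 rose and 4 fell, with Fgf2 at 2.36 and Bmp8b at -7.75. Of 8 binders and enzymes 2 rose and 1 fell. On the oocyte side of the contact 6 of 12 rose, among them Ctnnb1 (1.22) and Cdh2 (1.51), and 1 fell, Nectin2 (-1.43). Of 6 regulators of oocyte promoters, Nr6a1 (0.87) and Sohlh2 (1.17) rose and Figla (-3.88), Nobox (-1.55) and Lhx8 (-0.74) fell. On the spike-in scale the median gene was at -2.12, and the lists were not counted on that scale.

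In MII Dis3 cKO eggs, where 42.1% of all genes were called, 3 of 17 receptors and SMADs were higher and 6 lower, with Smad5 at 1.28, the BMP15 receptor Bmpr2 at -0.82 and Acvr2b at -1.09. Of 12 connexins and pannexins 4 were higher, among them Panx2 (2.90), and 1 was lower, Gja1 (-3.66), with a median of 0.47. Of the 12, 2 passed the interaction of genotype and maturation, both higher, against 13.2% of all genes. That interaction is not given here for the other pathway lists. Of 8 extracellular binders and ligand-processing enzymes 1 was higher, Twsg1 (1.01), and 2 were lower, Grem1 and Fst. The other ligands split evenly, 3 higher and 3 lower of 11, among them Bmp5 (-0.67) and Tgfb2 (-0.70). Of the contact genes 1 of 12 was higher and 5 were lower, with Ezr at -2.26 and the KIT receptor gene at -0.70. Figla (1.07) and Nobox (0.27) were higher and Lhx8 lower (-0.63). In adult RiboMinus RNA, where 28.1% of all genes were called, 0 of 9 other ligands were called by edgeR, 1 of 16 receptors and SMADs was higher (Smad5, 0.41) and 4 were lower, including Acvr2b (-0.84) and Acvr1b (-0.63), and Lhx8 was again lower (-0.69) while Nobox was higher (0.34). Of 12 connexins and pannexins 3 were higher, among them Gja6 (2.99), and 1 was lower, Panx1 (-0.44). Of 12 contact genes 0 were higher and 4 lower, and of 8 binders and enzymes 1 was higher and 1 lower.

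In p20 dcKO oocytes, where 53.7% of all genes were called (4231 higher and 4300 lower), 5 of the 9 other ligands tested fell and 1 rose, with Tgfb2 at -1.02, Bmp5 at -1.53 and Fgf10 at -2.03. Receptors and SMADs went both ways, with 7 of 16 higher and 4 lower, among them Smad5 (2.34), Bmpr1a (0.71), Bmpr2 (-1.71) and Bmpr1b (-0.98). Of the 12 contact genes 8 fell and 0 rose, including the tight junction gene Tjp1 (-1.002), Kit (-0.59) and the microvillus gene Rdx (-0.55), and the list's median was -0.57 against -0.01 for all genes. Of 11 connexins and pannexins 2 were higher and 3 lower, among them Gjc1 (1.85) and Gja3 (-1.77), and of 7 binders and enzymes 1 was higher and 1 lower. Of the regulators Taf4b (0.56) and Figla (0.48) were higher and Lhx8 (-0.59) and Nobox (-0.46) lower. The granulosa markers summed to 117 to 188 CPM in dcKO and 133 to 178 CPM in control oocytes, so these ranges overlapped, while oocyte markers summed to 8164 to 12065 CPM and 6986 to 8723 CPM. Among the 9 granulosa markers tested, Nr5a2 was higher (0.55) and Cyp19a1 (-2.61) and Has2 (-3.24) were lower. Their part in the members' differences was not tested.

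Chromatin was profiled in pooled oocytes by CUT&Tag, which cuts DNA where an antibody is bound, with 3 libraries per group for H3K27me3, the Polycomb mark, and for an antibody labelled pols2s5, which the series title relates to RNA polymerase II (Pol II). The deposited peaks were called in each library, from libraries sampled to equal depth per the labels. The lists still differed in length. For Pol II they held 19697 to 35843 peaks in adult controls, 74287 to 82446 in p20 controls and 30311 to 122606 in adult Dis3 cKO. For H3K27me3 they held 87394 to 202628 in adult and 151535 to 159895 in p20 controls. In adult Dis3 cKO they held 224934 to 276316 and in p20 dcKO 244827 to 299716. The part of list length in the counts below was not tested. Within 1 kb of the start site, for the 5 members that had one, none carried an H3K27me3 peak in 2 or more of the 3 libraries of any of 4 groups, where 19.1% to 25.9% of 17274 genes did. By the same rule of 2 or more libraries, Pol II peaks were found at 0 of the 5 in adult and p20 controls, where 1.73% and 6.72% of genes had one, and at 2 of the 5 in adult Dis3 cKO oocytes, where 5.51% did. Those were Bmp6 and Oosp2, each in 2 of 3 libraries. In 1 of 3 control libraries a Pol II peak was found for Gja4 and Bmp15 in adults and for Gja4 and Oosp2 at p20, and an H3K27me3 peak for Bmp6 and Oosp1 in adults.

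Over whole genes, 1 member stood out and was singled out after its values were seen. Peaks of H3K27me3 covered 71.5% to 98.8% of Fgf8 in the 3 adult control libraries and 80.9% to 92.2% in the 3 p20 control libraries. In the 3 adult Dis3 cKO and the 3 p20 dcKO libraries no H3K27me3 peak lay on Fgf8. Among genes covered to at least 50% in each control library, 22 of 398 (5.53%) had no peak in any adult Dis3 cKO library and 41 of 1217 (3.37%) had none in any p20 dcKO library. The median cover of those genes went from 81.5% to 43.3% in the adult and from 76.1% to 43.4% at p20, so lower cover in the knockouts was common among them. These genes were picked by their cover in controls, which favours a lower value elsewhere. Over all genes, peaks in 2 or more libraries were no rarer in the knockouts, at 36.4% in adult control and 41.3% in adult Dis3 cKO, and at 39.0% in p20 control and 48.6% in p20 dcKO oocytes. Fgf8 message was not called different in adult Dis3 cKO oocytes with TMM (0.08, SE 0.10, adjusted p = 0.583) but was called lower there with ERCC scaling (-0.49, adjusted p = 0.0339), and it was lower in dcKO oocytes with either (-1.16 and -1.19). The other 7 members had H3K27me3 peaks in at most 1 of 3 libraries of any group, over at most 11.03% of the gene. With 3 libraries against 3, an exact permutation test cannot fall below p = 0.10, and none was made.

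Pol II peaks lay over some part of 7 of the 8 genes in 2 or more of the 3 p20 control libraries, of 3 in adult controls and of 6 in adult Dis3 cKO oocytes, where 46.0%, 27.5% and 47.4% of all genes had one. Gdf9 was covered to 4.57% to 19.8% in p20 controls, had a peak in 1 of 3 adult control libraries and was covered to 5.23% to 24.0% in adult Dis3 cKO oocytes. Bmp6 had peaks in all 9 libraries, over 2.22% to 4.76% of the gene in adult controls, 6.75% to 10.5% at p20 and 4.79% to 17.5% in adult Dis3 cKO. Among the adult Dis3 cKO libraries its cover was lowest in the list of 30311 peaks and highest in that of 122606 peaks. The part of list length in the cover of the members was not tested. Oosp3 had peaks in all 3 p20 control libraries, in 1 adult control library and in none of the adult Dis3 cKO libraries. Over Gja4 itself a peak was found in 1 of the 9 libraries, an adult control.

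**Figure D5:**
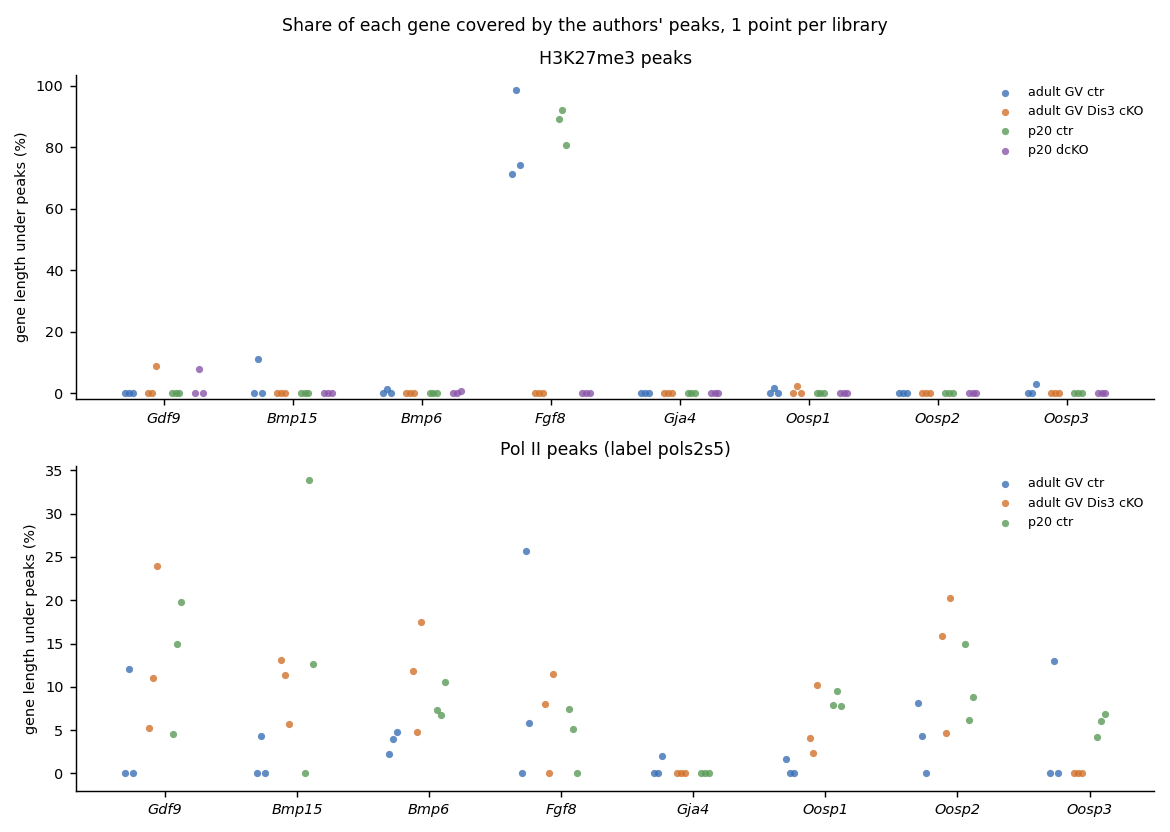
Share of each of the 8 genes, from start to end, covered by peaks in each CUT&Tag library, for H3K27me3 (4 groups) and the Pol II antibody (3 groups), in percent. Points are the 3 libraries of a group. Fgf8 is covered to 71.5% or more by H3K27me3 in all 6 control libraries and to 0% in the 6 knockout libraries.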

How the data were processed

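Single-oocyte RNA was measured in 71 poly(A) and 48 RiboMinus libraries, and chromatin by CUT&Tag in pooled oocytes. The authors trimmed reads with cutadapt 2.5, aligned them with STAR 2.7.2a to mm10 and counted them with HTSeq 0.9.1, per the submitters' processing notes. The annotation and strand setting are not given in the sources used here. The deposited files hold raw counts per gene, ERCC spike-ins included. The deposited peak lists give a total and a maximum signal per peak, per library, in the layout of SEACR. Symbols were found for 99.678% of poly(A) and 99.376% of RiboMinus identifiers.

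Counts were fitted with edgeR 4.0.16 (filterByExpr, TMM, quasi-likelihood test, Benjamini-Hochberg over all genes tested, threshold 0.05): all 6 poly(A) groups together, the adult pair (15334 genes), the 4 p20 groups (15882 genes) and, across ages, all 6 RiboMinus groups (17267 genes). The SE was recovered from the estimate and its F statistic. The steps were tested on simulated data. DESeq2 1.42.0, ERCC scaling, no filter, a replicate block, sums per title tag and leaving out libraries were the alternatives. Replicate numbers did not pair the oocytes: the median correlation of same-numbered deviations was at most 0.056. Peaks were matched to start sites within 1 kb.

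The members and lists were chosen with earlier results of these data known. Named were all members, up to 3 genes per list and direction with the lowest adjusted p, and the 3 likest genes of each member. Dis3 cKO 9 at GV was not analysed here, nor were IgG libraries.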

Additional observations from a re-analysis of the deposited data

Results flagged for a closer look

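Of 72 sets of values, each for 1 member in 1 of the 9 groups of 8 libraries, 7 had 1 library far from the others, and chance alone gives about 1 in 20. The 7 fall in 5 groups, and 2 libraries account for 2 sets each. Oosp2 was at 232 CPM in MII control 8, with the others at 113 to 159 CPM. Among p20 controls, library 2_1 was lowest in Gdf9, at 2582 CPM against 3522 to 4299 CPM, and highest in Bmp6, at 360.3 CPM against 224 to 278 CPM. Exosc10 cKO 2_4 at p20, which also stands apart over all genes, was highest in Oosp1, at 1329 CPM against 791 to 995 CPM, and in Oosp3, at 436 CPM against 235 to 327 CPM. Fgf8 was at 91.7 CPM in p20 Dis3 cKO 1_4, with the others at 51.7 to 68.2 CPM. Oosp2 was at 31.3 CPM in p20 dcKO 1_2, with the others at 51.5 to 67.2 CPM.

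The Dis3 cKO effect differed between MII and GV for 2 members by the interaction test: Gja4, by 0.99 on the log2 scale, and Oosp2, by 1.29.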

How the results depend on the processing

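The 8 members gave 152 results, of which 88 were called under some setting. Of the other 64, 31 changed sign under an alternative. The 88 gave 839 values under alternatives, of which 721 kept their direction and side of the threshold, 40 lost and 43 gained a call and 35 changed sign. With DESeq2, 87 of these 88 results kept both and 1 gained a call, and with DESeq2's size factors all 88 kept both. Where a value changed, the cause was not tested. ERCC scaling turned the most signs. It gave -0.019 for Oosp1 at GV. From GV to MII in controls it gave -1.26 for Gdf9, -1.27 for Bmp15, -0.42 for Oosp1 and -0.43 for Oosp3, and in the knockout -0.36 for Gdf9, -0.53 for Bmp15 and -0.14 for Oosp3. It gave 0.16 for Fgf8 from GV to GV3h in the knockout. In the adult knockout it gave -0.49 for Fgf8, -0.27 for Oosp1, -0.55 for Oosp2 and -0.24 for Oosp3, in p20 Dis3 cKO -0.13 for Gja4, and in dcKO against Dis3 cKO 0.0020 for Bmp15 and 0.0070 for Gja4. From p20 to adult it gave -1.47 for Bmp6, -1.34 for Fgf8, -1.43 for Gja4, -1.31 for Oosp1, -1.65 for Oosp2 and -1.41 for Oosp3 in controls, and -1.55 for Fgf8, -1.86 for Gja4, -1.35 for Oosp1, -1.93 for Oosp2 and -1.36 for Oosp3 in the knockout. Without the libraries that stand apart Bmp15 had 0.061 in the knockout at GV and Gja4 -0.054 from GV to GV3h. Leaving out single libraries turned values near 0: Bmp15 at GV ran from -0.12 to 0.0030, Bmp6 from GV to GV3h in the knockout from -0.036 to 0.046, Gja4 in the adult knockout from -0.053 to 0.019, and Oosp2 there from -0.013 to 0.12, between control ages from -0.021 to 0.073 and between knockout ages from -0.026 to 0.11.

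Counts of members called moved as follows. At GV, 0 became 1 with ERCC scaling, 1 with only the compared groups fitted, 4 with title numbers 1 to 8, 4 with the replicate block on those, 4 without the apart libraries and 0 to 3 leaving out 1 library. From GV to GV3h in the knockout, the 4 called with TMM (1 higher and 3 lower) were 4 with ERCC scaling, all higher. At GV3h, 1 became 2 with title numbers 1 to 8, 2 with the replicate block, 2 without the apart libraries and 2 with only the compared groups. Between control GV and GV3h, 0 became 1 with only the compared groups. In the GV3h interaction, 0 became 1 without the apart libraries. From GV to MII in the knockout 8 became 5 with ERCC scaling. In the adult knockout 2 became 6 with ERCC scaling, 1 without a filter, 0 summed per tag, where edgeR called 0 of 20190 genes, and 1 to 3 leaving out 1 library. In p20 Dis3 cKO 0 became 1 with only the compared groups, and in Exosc10 cKO 0 to 1 leaving out 1 library. Against Dis3 cKO, the dcKO count of 7 became 2 with ERCC scaling, and the Exosc10 cKO count of 1 became 0 with ERCC scaling, without a filter, summed per tag, with only the compared groups and in 0 to 1 leaving out 1 library. Between ages, the control count of 4 became 8 with ERCC scaling, 2 without a filter, 0 summed per tag and 1 to 4 leaving out 1 library, the knockout count of 4 became 8 with ERCC scaling, and the interaction's 0 became 1 with only the compared groups and 0 to 1 leaving out 1 library. The replicate block moved no other count by over 1.5 times, and the numbers pair no samples. For H3K27me3, any peak over the gene gave 1 member in adult and 1 in p20 controls against 0 at start sites. For Pol II, a window of 2.5 kb gave 1, 1 and 4, and any peak over the gene 3, 7 and 6, in adult control, p20 control and adult Dis3 cKO oocytes, against 0, 0 and 2. Levels per kilobase were not run, since no exon lengths were used here. Depth limited Fgf8 in eggs most, where the lowest count was 20.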
